A study of Mus musculus with 6 samples.

Results

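Pax5 peaks at H3K4me3 promoters are the Pax5 ChIP-seq peaks of pre-B cells that lie at a promoter carrying trimethylated histone H3 lysine 4. They were chosen by 2 conditions, namely that any base of the peak lay within 1000 bp of a transcript start of a protein-coding gene (GENCODE M1, mm9) and that the peak shared at least 1 bp with an H3K4me3 region. Of the 15445 Pax5 peaks, 7571 (49.0%) met both. A further 458 peaks lay near a start without H3K4me3, and 7416 lay away from starts, 1848 of them with H3K4me3 and 5568 without. The Pax5 peaks, the H3K4me3 regions and the distance to the start thus selected the promoter peaks, and values of these are given as a description only.

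Chromatin immunoprecipitation and sequencing was performed for Pax5, H3K4me3 and H3K27ac in pre-B cells from the bone marrow of C57BL/6 RAG-/- µ+ mice, aged 6 to 14 weeks and of both sexes. These mice lack the RAG recombinase and carry a rearranged IgM transgene, so the cells reach the pre-B stage with a given heavy chain and cannot rearrange light chain genes, and all 3 profiles share this background. Each profile is a list of intervals from 1 library, with no replicate, so no difference below was tested and peaks and genes are not replicates. The lists give intervals without reads, which leaves their sequencing depth unknown, and the 3 input samples were not used here.

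Pax5 is the transcription factor that commits progenitors to the B lineage. It binds DNA through its paired domain, activates B cell genes and represses genes of other lineages. H3K4me3 marks the promoters of active and poised genes, often those with CpG islands, and H3K27ac is an acetylation found on the nucleosomes of active promoters and enhancers. Nucleosomes are often missing at the start itself, so both marks commonly flank it.

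The 200 bp around the midpoint of 8 peaks are shown for the sequence features that the peaks turned out to have. Positions refer to NCBIM37, which is mm9, and the forward strand is given. The capitals mark the short Pax5 motif GCNTGAC on either strand, or the longer Pax5 core that contains it. Junb and Sfpi1 (the gene of PU.1) held the core, Erg and Map2k4 held the short motif alone, Pabpc1 had the highest Pax5 score, Ebf1 is a CpG-rich promoter of a B cell regulator, and Cd79a and the upstream peak of Blnk are CpG-poor sites at B cell genes. The last 4 held neither form. The 8 were picked to show these features, and over all 7570 complete windows of promoter peaks 9.56% held the short motif and 0.89% the core.
Junb chr8:87500529-87500728: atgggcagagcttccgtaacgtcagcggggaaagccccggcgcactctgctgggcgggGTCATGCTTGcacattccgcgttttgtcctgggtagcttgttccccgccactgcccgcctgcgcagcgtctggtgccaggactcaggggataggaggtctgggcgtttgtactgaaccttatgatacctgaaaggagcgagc
Sfpi1 chr2:90923318-90923517: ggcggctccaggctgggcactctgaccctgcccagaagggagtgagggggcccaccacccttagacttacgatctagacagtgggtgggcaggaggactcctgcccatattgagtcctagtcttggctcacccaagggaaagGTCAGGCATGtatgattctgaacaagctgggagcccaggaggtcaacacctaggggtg
Erg chr16:95681104-95681303: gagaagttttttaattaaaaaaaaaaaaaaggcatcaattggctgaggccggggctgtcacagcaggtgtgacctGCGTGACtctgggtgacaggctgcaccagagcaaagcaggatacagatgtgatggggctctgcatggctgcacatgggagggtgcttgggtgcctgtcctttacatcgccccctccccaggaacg
Map2k4 chr11:65601812-65602011: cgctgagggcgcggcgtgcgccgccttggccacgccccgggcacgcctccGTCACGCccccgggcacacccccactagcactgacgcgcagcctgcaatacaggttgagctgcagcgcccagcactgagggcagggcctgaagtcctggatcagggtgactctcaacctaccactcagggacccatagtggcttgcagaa
Pabpc1 chr15:36538733-36538932: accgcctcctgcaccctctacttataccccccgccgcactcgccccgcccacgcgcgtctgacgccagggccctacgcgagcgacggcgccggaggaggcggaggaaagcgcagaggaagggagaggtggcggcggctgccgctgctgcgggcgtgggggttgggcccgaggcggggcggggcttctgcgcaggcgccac
Ebf1 chr11:44431898-44432097: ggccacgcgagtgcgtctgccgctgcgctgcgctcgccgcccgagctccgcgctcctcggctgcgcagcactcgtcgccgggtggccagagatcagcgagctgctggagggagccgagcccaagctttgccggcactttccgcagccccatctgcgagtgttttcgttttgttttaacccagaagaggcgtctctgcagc
Cd79a chr7:25682610-25682809: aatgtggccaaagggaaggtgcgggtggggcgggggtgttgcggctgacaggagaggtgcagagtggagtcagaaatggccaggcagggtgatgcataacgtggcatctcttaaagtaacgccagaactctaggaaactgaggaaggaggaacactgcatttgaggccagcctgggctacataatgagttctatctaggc
Blnk chr19:41070454-41070653: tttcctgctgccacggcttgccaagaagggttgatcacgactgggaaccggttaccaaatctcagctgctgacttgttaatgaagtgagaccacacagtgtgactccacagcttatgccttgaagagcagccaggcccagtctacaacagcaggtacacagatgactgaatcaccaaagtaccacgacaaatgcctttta

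Most promoters with H3K4me3 had a Pax5 peak. The promoter peaks belonged to 8214 of 22380 protein-coding genes (36.7%), and 8203 of the 11848 genes with an H3K4me3 region within 1000 bp of a start had one (69.2%). Most genes, 7714, had 1 such peak, 475 had 2 and 25 had 3 or more. Conversely, 1055 peaks (13.9%) lay within reach of starts on both strands, as at promoters that serve a pair of genes transcribed away from each other.

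The H3K4me3 genes with and without Pax5 differed in other features. An H3K27ac peak lay within 1000 bp of a start in 94.3% of the genes with a promoter peak and in 68.9% of the 3546 H3K4me3 genes with no Pax5 peak. The H3K4me3 region had a median width of 1625 bp in the first group and 1075 bp in the second. A start of another gene on the opposite strand was present at 23.0% against 10.1%, and the observed to expected CpG ratio of the promoter had a median of 0.889 against 0.791. Across quartiles of H3K4me3 width from narrow to wide, 38.3%, 69.1%, 80.8% and 88.7% of genes had a promoter peak. A wider H3K4me3 region also gives more bases that a Pax5 peak can share, and the part of this in the increase was not tested. Of H3K4me3 genes with a CpG-rich promoter (ratio above 0.6 and G plus C above 50%), 73.2% had a peak, and of the others 51.3%. Among the CpG-rich ones it was 85.8% of those with an opposite start and 70.0% of those without, and among the others 72.1% and 47.5%. A peak counted for every gene with a start within 1000 bp, and 1134 promoter peaks counted for 2 or more genes. A gene with an opposite start can thus be given the peak of its neighbour, and the part of this in the shares was not tested.

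**Figure D1:**
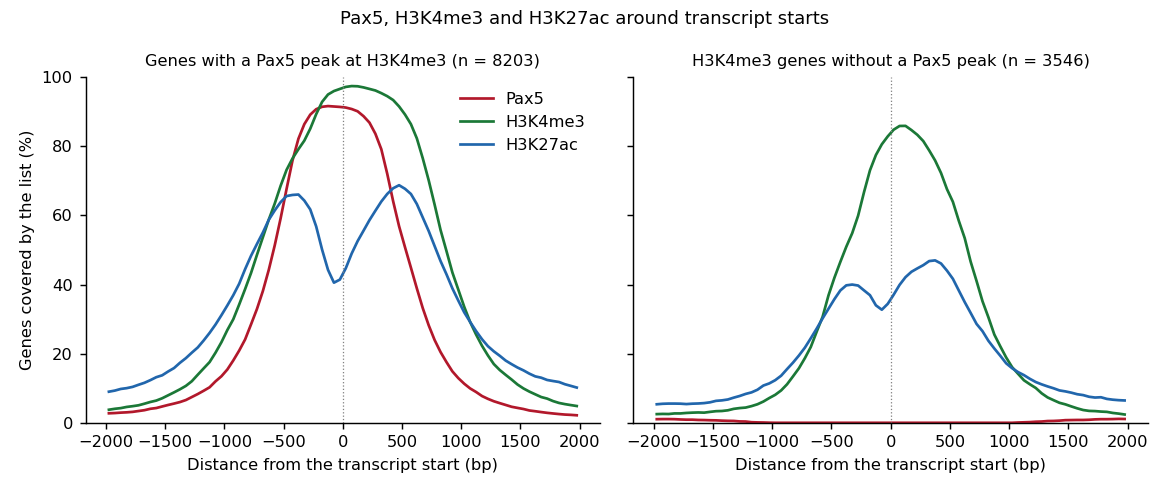
Share of genes (%) whose start, or a position up to 2000 bp from it, was covered by Pax5, H3K4me3 or H3K27ac intervals, for 8203 genes with a Pax5 peak at H3K4me3 (left) and 3546 H3K4me3 genes with no Pax5 peak (right), with negative distances upstream. H3K27ac had 2 maxima on either side of the start in both groups, reaching 68.7% of the genes on the left and 47.0% on the right. For each gene the start nearest the midpoint of an H3K4me3 region was used, which in part sets the H3K4me3 cover there.

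The peaks were centred on the start. The midpoint lay at a median of 10 bp downstream of the nearest start, with quartiles at -75.5 and 119 bp and a range from -2532 to 1988 bp, where negative values are upstream. Within 100 bp of the start lay 51.1% of the midpoints, within 250 bp 79.4% and within 500 bp 91.6%. The peak itself covered a start in 7072 cases (93.4%). Pax5 peaks near a start without H3K4me3 were more spread, since 43.7% of the 458 covered a start and 33.0% had their midpoint within 250 bp. By annotation, the midpoint fell in a 5′ UTR in 35.6%, outside transcripts in 31.1%, in an intron in 21.0% and in a coding exon in 12.0%. At the limit of 1000 bp, the edges of the outermost members lay 1000 bp (Clec11a), 998 bp (Snx20) and 986 bp (Ngfr) from a start, and the nearest peaks left out lay at 1001 bp (Ncln), 1004 bp (Traf1) and 1010 bp (5031439G07Rik). Few peaks were near the limit, 27 in the last 100 bp inside it against 19 with H3K4me3 in the first 100 bp outside it.

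**Figure D2:**
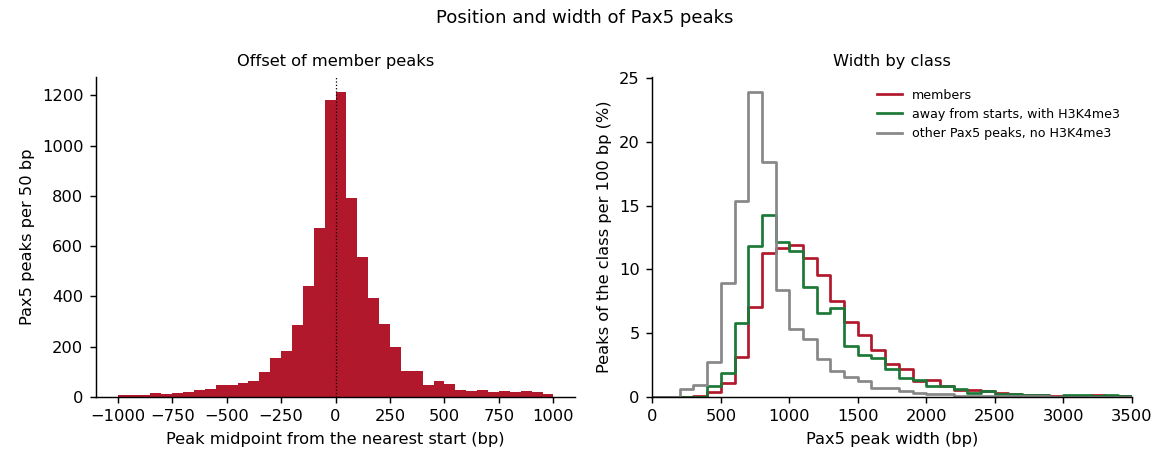
Number of Pax5 peaks at H3K4me3 promoters per 50 bp of distance between the midpoint and the nearest start (left), and the share of peaks (%) per 100 bp of width for these 7571 members, for the 1848 Pax5 peaks away from starts with H3K4me3 and for the other Pax5 peaks without H3K4me3 (right). The midpoints gather around a median of 10 bp, and the widths of the promoter peaks, with a median of 1130 bp, lie close to those away from starts with H3K4me3, with a median of 1027 bp.

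Promoter peaks were wider and scored higher at the median than the other Pax5 peaks, and were closest in both to those away from starts that carried H3K4me3. Their median width was 1130 bp, with quartiles at 918 and 1407 bp, against 822 bp for all other peaks, 1027 bp for those away from starts with H3K4me3 and 788 bp for those away from starts without it, and 394 of 7571 against 142 of 7874 exceeded 2000 bp. The score of a peak is the number that the authors' peak caller gave it, whose scale is not named, and it ranks peaks within the list only. It had a median of 258 against 173 for all other peaks, 211 away from starts with H3K4me3 and 163 away from starts without it. At the promoter peaks it ran from 87.87, a value that a peak away from starts shared, to 3214.14. H3K4me3 covered the midpoint of 96.6% of the promoter peaks and the whole of 50.8%. Only 12 peaks shared 25 bp or less with it, the least being 5 bp.

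H3K27ac, which the choice did not use, overlapped 6969 of the 7571 promoter peaks (92.0%), against 79.3% of all Pax5 peaks, 67.7% of those away from starts and 56.8% of those near a start without H3K4me3. The last 2 classes differ from the promoter peaks in H3K4me3. Away from starts, the 1848 peaks with H3K4me3 overlapped H3K27ac in 91.1%, and 3339 of the 5568 without it did so. The promoter peaks were also wider, which gives more room for an overlap, and this was not tested. At the midpoint itself, H3K27ac was present in 46.8% of the promoter peaks and in 48.9% of the peaks away from starts. The latter were of 2 kinds, with H3K27ac at the midpoint of 71.0% of those with H3K4me3 and of 41.5% of those without it. Of the promoter peaks, 3788 of 7571 touched 2 or more H3K27ac peaks, against 463 of the 1848 away from starts with H3K4me3 and 930 of the 5568 without it. H3K27ac lay within 500 bp on both sides with none at the midpoint in 26.4% of the promoter peaks, 11.5% of those away from starts with H3K4me3 and 9.03% of those without. At the promoter peaks the covered share was 46.8% at the midpoint, 65.6% at 400 bp upstream and 68.3% at 450 bp downstream. Higher Pax5 scores went with more H3K27ac, with overlaps of 85.7%, 91.4%, 93.9% and 97.1% from the lowest to the highest score quartile, while the share at the midpoint, from 45.3% to 47.6%, moved little. Width rose along the same quartiles, from a median of 939 to 1366 bp, and the median offset stayed between 9 and 12 bp.

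**Figure D3:**
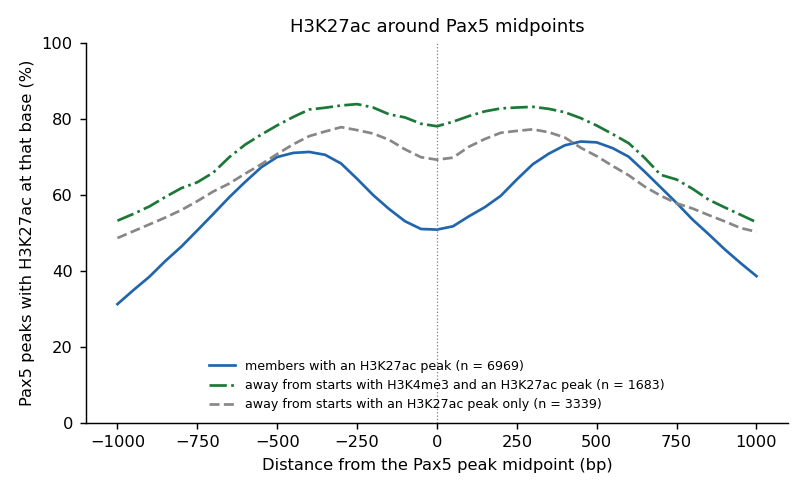
Share of Pax5 peaks (%) with H3K27ac at each distance from the Pax5 midpoint, for the 6969 promoter peaks that overlap an H3K27ac peak (solid, negative distances upstream of the nearest start) and, in chromosome order, for the peaks away from starts that overlap one, 1683 with H3K4me3 (dash-dotted) and 3339 without (dashed). The dip at the midpoint is deeper at promoters, at 50.8% against 78.0% and 69.2%.

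The DNA under the promoter peaks was that of CpG island promoters, and the Pax5 motif was rarer there than at the Pax5 peaks away from starts without H3K4me3. Of the 7570 central windows of 200 bp with a complete sequence, 83.1% were CpG-rich, against 10.7% of the windows of peaks away from starts and 71.7% of the promoters with H3K4me3 and no Pax5 peak. The short Pax5 motif GCNTGAC, searched on both strands, was present in 9.56% of the promoter peaks, 5.91% of windows of equal length 400 to 600 bp to their sides, 5.81% of the H3K4me3 promoters with no Pax5 peak, 7.19% of all promoters and 16.9% of the peaks away from starts. For the longer core, which always contains the short motif, the shares were 0.89%, 0.40%, 0.25%, 0.66% and 3.44% in the same order. Peak windows were centred on the midpoint, and promoter windows on the start. In start-centred windows of the genes with a promoter peak, 86.6% were CpG-rich. The short motif was present in 8.82% of them and the core in 0.65%, which for the core is near the share of all promoters. From the lowest to the highest score quartile of promoter peaks the short motif was present in 7.55%, 8.77%, 10.3% and 11.6%. The core was present in 0.26%, 0.95%, 1.32% and 1.00%, so it did not rise into the highest quartile. In bins of 50 bp the short motif ranged from 1.35% to 2.88% within 500 bp of the promoter midpoints, while at the peaks away from starts it rose to 5.53% just beside the midpoint. Away from starts, CpG-rich windows made up 30.7% of the peaks with H3K4me3 and 4.08% of those without, the short motif was present in 10.9% and 18.9%, and the core in 1.46% and 4.09%. The short motif at the promoter peaks was thus near its share at other peaks with H3K4me3. A match shows only that the letters are present, not that Pax5 bound there.

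The motifs of Sp1, ETS factors and NRF1 were more frequent at the promoter peaks than away from starts. GGGCGG, the core of Sp1 sites, was present in 55.2% of the promoter peaks, 10.2% of the peaks away from starts, 40.3% of all promoters and 55.2% of the H3K4me3 promoters with no Pax5 peak. CCGGAAG, a motif of ETS factors, was present in 12.8%, 2.51%, 9.08% and 10.9%, and GCGCANGCG, the motif of the respiratory factor NRF1, in 9.83%, 1.02%, 6.02% and 7.08%. Peak windows were centred on the Pax5 midpoint and promoter windows on the start, so these shares are not fully alike. In start-centred windows of the genes with a promoter peak, the shares were 62.4% for GGGCGG, 17.4% for CCGGAAG and 11.7% for GCGCANGCG. For CCAAT the share in these windows was 24.3%. Away from starts, GGGCGG was present in 23.1% of the peaks with H3K4me3 and 5.93% of those without. The shares of CCAAT, the motif of NF-Y, lay closer together, with 21.3% of the promoter peaks, 18.6% of the peaks away from starts, 5602 of all 22378 promoters and 21.9% of the H3K4me3 promoters with no Pax5 peak. The lymphoid motifs CAGCTG (an E-box of E2A) and TGTGGTT (Runx) were lower at promoter peaks, with 11.5% against 24.7% and 1.86% against 8.04% of the peaks away from starts. At the H3K4me3 promoters with no Pax5 peak they were similar to the promoter peaks, with 11.1% and 1.78%. Of all promoters, 12.5% held CAGCTG and 3.08% TGTGGTT. The Ebf1 motif, TCCCNNGGG, was present in 5.83% of promoter peaks and 6.53% of peaks away from starts. It was present in 4.88% of all promoters and 6.32% of the H3K4me3 promoters with no Pax5 peak. These motifs differ in their C and G content, as do the classes, and the part of base composition in the shares was not tested.

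The 1277 promoter peaks whose window was not CpG-rich stood apart from the 6293 CpG-rich ones in how H3K27ac lay. The overlap was 94.8% against 91.5%, but 79.8% against 40.1% had H3K27ac at the midpoint, and 7.20% against 30.3% had it on both sides only. Their midpoints were less tightly placed, with 57.6% against 83.8% within 250 bp of a start. The scores had medians of 231 and 262. The short Pax5 motif was present in 9.71% and 9.53%, and the longer core was present in 1.88% and 0.68%. The contrast in H3K27ac was not particular to promoters. Away from starts, H3K27ac lay at the midpoint of 50.6% of the 6622 peaks that were not CpG-rich and 34.5% of the 794 CpG-rich ones. It lay on both sides only in 8.67% and 17.8% of these.

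The peak with the highest score, 3214.14, was at Pabpc1, which encodes the cytoplasmic poly(A)-binding protein, at chr15:36537840-36539825. Then came Csf2ra, a cytokine receptor chain, with 3135.99, and Dnpep, an aspartyl aminopeptidase, and Jun, an AP-1 factor, which both had a score of exactly 3100. The same value was the highest score of the Pax5 peaks outside the promoter peaks. Whether it is a ceiling of the caller is not given in the sources used here, so the order around it is uncertain. BC031781 (2778.72), Pnrc1 (2696.76), Hist2h2aa2 (2621.62), the shared peak of Hist2h2aa1 and Hist2h3c1 (2560.94), Csnk1g2 (2505.98) and Ywhaz (2427.51) completed the first 10. Hist2h2aa1 and Hist2h2aa2 are near-identical copies, so their 2 peaks are uncertain. The lowest scores were those of Gigyf2 (87.87), Sgk3 (87.91), Tlr2 (87.92), the peak between Tmem135 and Fzd4 (87.92) and Atg7 (88.02). Each of the first 10 overlapped 2 or 3 H3K27ac peaks.

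The 5 widest peaks were at genes of transcription factors. Jund (5756 bp), Junb (5068 bp), Klf2 (4675 bp), Nr4a3 (4457 bp) and Cux1 (4138 bp) led, of which Jund and Junb encode AP-1 factors, Klf2 a regulator of lymphocyte quiescence and trafficking, and Nr4a3 an orphan nuclear receptor. At Junb the midpoint lay 1988 bp and at Klf2 1762 bp downstream of the start, so the peaks ran across the genes, and 3 and 5 H3K27ac peaks lay under them. The Junb window above held the longer Pax5 core.

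At the other end, 602 promoter peaks (of 7571) overlapped no H3K27ac peak. The highest-scoring of these were Nhlrc1 (1878.9), Map2k4 (1747.68), Kifc1 (1729.59), Spsb1 (1698.48) and D1Bwg0212e (1578.35), of which Map2k4 is a kinase upstream of JNK and Kifc1 a mitotic kinesin. Their widths, 833, 1001, 844, 1022 and 1195 bp, were near or under the median of the promoter peaks. Map2k4 and Kifc1 did have an H3K27ac peak within 1000 bp of a start, outside the Pax5 peak, and the others had none.

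The widest H3K4me3 regions with a promoter peak were at Pax5 (9700 bp), Tnrc18 (9200 bp), Bcl11a (7050 bp), the bromodomain gene Brd2 (6825 bp) and Zfp516 (6275 bp). The highest Pax5 scores in these regions were at Brd2, which had peaks of 797.06, 759.3 and 91.45. The Pax5 gene had peaks of 469.25, 215.3 and 205.56, and Bcl11a had 192.3 and 115.45. The peak of Tnrc18 scored 174.9 and those of Zfp516 260.03 and 171.71. No gene had more than 3 promoter peaks, and the first 5 genes with 3 in alphabetical order were Aff1, Atxn7l1, Bmf, Brd2 and Cbfa2t3. At Cbfa2t3, a corepressor gene, the scores were 120.67, 272.01 and 699.67, the first without H3K27ac, and at Atxn7l1 all 3 were low, from 94.74 to 116.41.

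**Figure D4:**
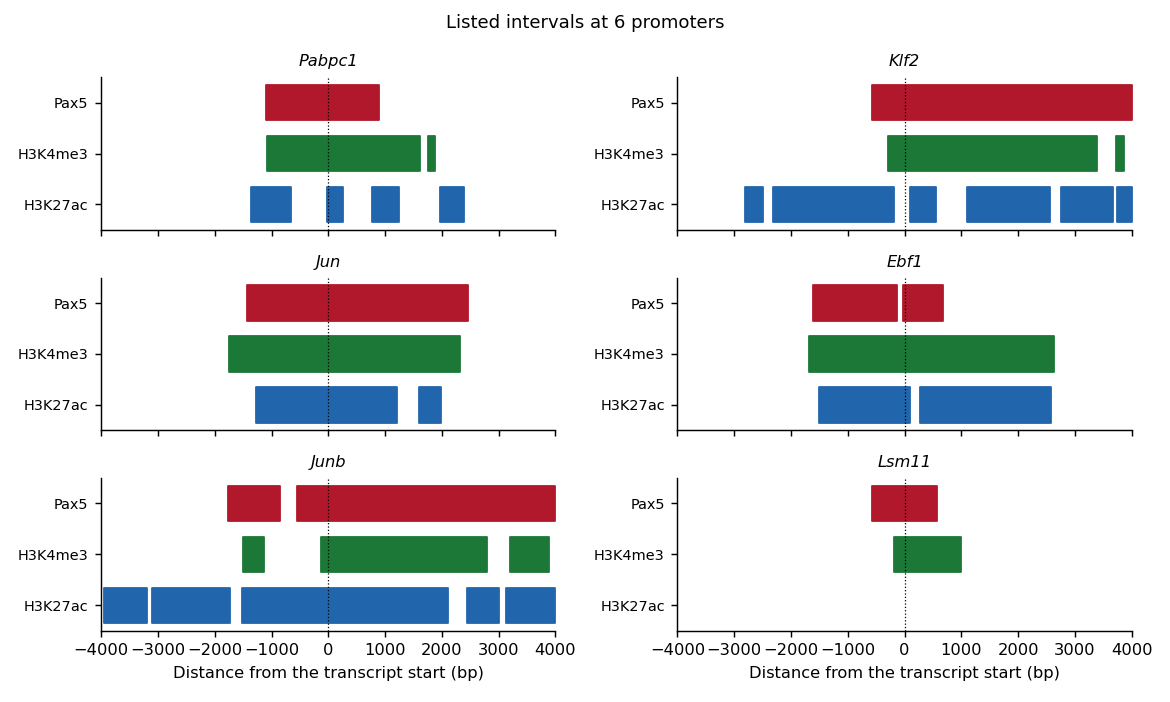
Intervals of the Pax5, H3K4me3 and H3K27ac lists within 4000 bp of the start at 6 promoters, drawn in the direction of transcription and clipped at the edges. Junb and Klf2 carry Pax5 across more than 4000 bp, Ebf1 has 2 Pax5 peaks, and Lsm11, with a score of 1223.89, has no H3K27ac.

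The gene lists below were read against the 69.2% of H3K4me3 genes with a promoter peak. Their H3K27ac overlaps stand beside the 92.0% of all promoter peaks. Of the 25 B lineage transcription factors named, 24 were annotated as protein-coding, and all 24 had H3K4me3 and a promoter peak, and all 38 of their peaks overlapped H3K27ac. Pax5 itself had the widest H3K4me3 region of all those with a promoter peak, 9700 bp, with 3 Pax5 peaks of 205.56, 215.3 and 469.25, the last with its midpoint 191 bp upstream of a start. Bcl11a, needed for early B cells, followed among these factors with a region of 7050 bp and scores of 192.3 and 115.45. Ebf1, the partner of Pax5 in B cell specification, had scores of 380.59 at 14 bp upstream and 148.05 at 317 bp downstream. The highest scores were those of Spib (1763.98), an ETS factor, Irf8 (1318.32), Tcf4 (1205.35), an E protein, and Klf2 (1179.31). Both Spib and Irf8 had this peak over 1000 bp from the start by its midpoint, at -2006 and 1256 bp, where the joined H3K4me3 region was only 75 and 300 bp wide. Ikzf1, Tcf3, Tcf12, Bach2, Erg, Sfpi1 and Pou2f1 had 2 promoter peaks each, and the Sfpi1 peak with the Pax5 core (268.1) lay 853 bp downstream of a start in an H3K4me3 region of 50 bp. Of the 38 peaks, 19 were not CpG-rich, and 3 held the short Pax5 motif. Over all promoter peaks, 1277 of 7570 windows were not CpG-rich and 9.56% held the short motif.

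Of 20 B cell identity and surface genes, 17 had H3K4me3 and 13 a promoter peak (76.5% of the 17). All 15 of their peaks overlapped H3K27ac, 14 of the 15 were not CpG-rich and none held the short Pax5 motif in its central window. Of all promoter peaks, 92.0% overlapped H3K27ac, 1277 of 7570 windows were not CpG-rich and 9.56% held the motif. Cd79a, a signalling chain of the B cell receptor, had a score of 449.59 at 310 bp, and its partner Cd79b one of 244.5 with the midpoint at the start. Blnk, the adaptor downstream of the receptor, had 678.73 at 54 bp and 589.85 at -1529 bp in an H3K4me3 region of 5600 bp. Cd24a scored 1146.07, Cd37 674.64, Cd93 664.13 and Fcrla 646.68, and Cd74, the invariant chain, was near the lower end with 97.26. Cd180, Cd38, Cd53 and Ptprc had H3K4me3 and H3K27ac but no Pax5 peak within reach of a start.

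Genes of pre-B receptor signalling had a promoter peak in 18 of 25 cases, or 78.3% of the 23 with H3K4me3. Bcl10 (1415.68), Sykb (the Syk kinase, 1372.25), the Src family kinase Lyn (1275.1), Vpreb1 (1163.11), part of the surrogate light chain, and the PI3K adaptor Pik3ap1 (1085.41) scored highest. Btk, Vav1, Bank1 and Lcp2 were among those with H3K4me3 and no promoter peak. Igll1 and Vpreb2, which also form surrogate light chains, had a Pax5 peak near the start but no H3K4me3 region there. Fyn (257.11) and Vav2 (403.91) had promoter peaks without H3K27ac. In V(D)J recombination and end joining, 10 of 12 H3K4me3 genes had a peak (83.3%), among them Xrcc6 (Ku70) with 3 peaks up to 1323.85, Lig4 with 472.84 and 198.49, Rag1 with 424.73 and 95.29, and Rag2 with 333.04, while Xrcc4 and Xrcc5 had none.

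Among genes known as repressed by Pax5, 7 of the 11 with H3K4me3 (63.6%) had a promoter peak, of 19 in all. These were Cd47 (1182.49), the cytokine receptor Flt3 (473.91), Notch1 (361.32), the proteoglycan Sdc1 (203.1), the plasma cell regulators Prdm1 (151.69) and Xbp1 (145.1), and the T cell factor Gata3 (100.01). H3K27ac was missing at the peaks of Prdm1 and Gata3 and present at the other 5. Csf1r, Cd44, Itgal and Emb had H3K4me3 and no promoter peak.

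All 25 genes of replication licensing and the fork had a promoter peak, the highest at Gins2 (673.34) and Rfc4 (644.14). All 27 of these peaks overlapped H3K27ac, against 92.0% of all promoter peaks. Genes of the cell cycle had one in 19 of 24 (79.2% of those with H3K4me3), with low scores, a median of 143 and at most 354.67 at Cdk6, and none at Ccnd2, Ccnb2, Ccne1, E2f4 or Rbl1. Both peaks of Ccnd1 lacked H3K27ac, whereas Ccnd3, the cyclin of pre-B cell expansion, had it at both of its peaks (181.7 and 88.48). In the Bcl2 family 9 of 13 (69.2%) had a peak, with high scores at the survival genes Mcl1 (1741.55) and Bcl2l1 (1158.71) and at the death genes Bcl2l11 (1378.02) and Bmf (1365.54), and none at Bcl2. All 12 genes of the NF-kB list had one, led by Nfkb2 (1005.6) and Rel (669.09). Chromatin and histone modifying enzymes had one in 27 of 31 (87.1%), led by the remodeller Smarca4 (1181.59), the H3K4 demethylase Kdm5a (879.41) and the H3K4 methyltransferase Setd1a (758.5).

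Families of general function lay near or above the share of all H3K4me3 genes. A promoter peak was present at 67 of 76 ribosomal protein genes with H3K4me3 (88.2%), 49 of 59 replication-dependent histone genes (83.1%), 25 of 31 splicing genes (80.6%), 42 of 55 translation initiation factor genes (76.4%), 58 of 76 mitochondrial ribosomal protein genes (76.3%), 32 of 42 genes of RNA polymerase II and mediator (76.2%) and 27 of 37 proteasome genes (73.0%). Examples were Eif4b (2044.1), Mrps7 (1978.32), Polr2a (1829.49), the largest polymerase subunit, Psma7 (1618.71), Rps19 (1606.17) and Lsm3 (1506.94). Zinc finger genes with the symbol Zfp and a number were lower, 174 of 276 (63.0%). None of the 1113 olfactory receptor genes had H3K4me3 or a promoter peak. Histone genes share promoters, so that their 51 genes with a peak had 33 peaks between them, and those of near-identical copies are uncertain.

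**Figure D5:**
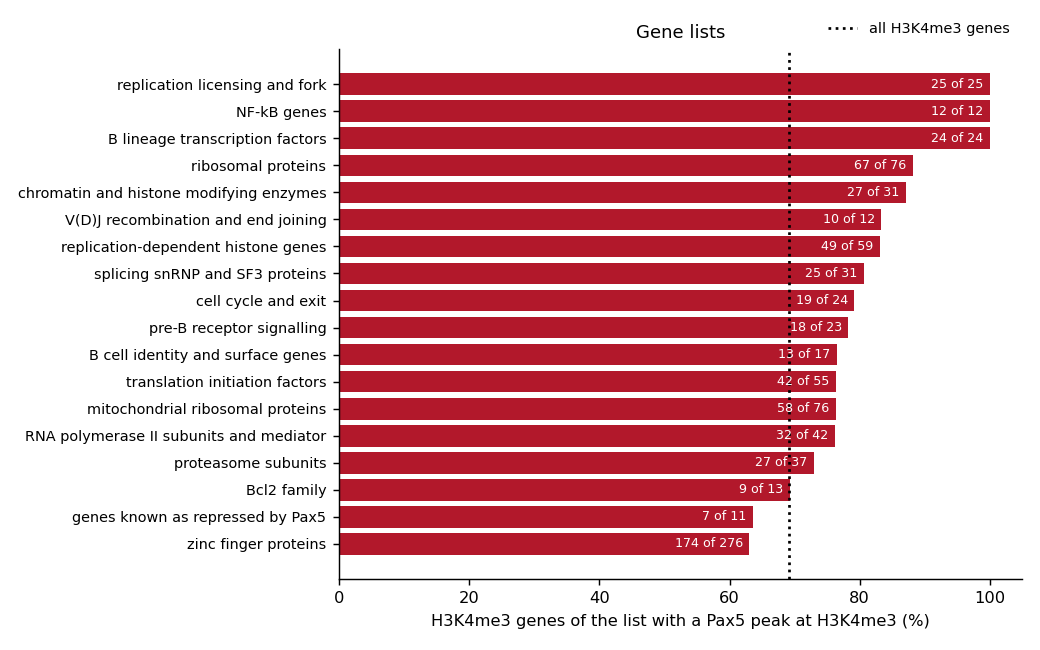
Share (%) of the genes with H3K4me3 in each list that had a Pax5 peak at H3K4me3, with the counts in the bars. The dotted line is the 69.2% of all H3K4me3 genes, and the lists run from 63.0% for zinc finger proteins to 100% for replication genes, NF-kB genes and B lineage transcription factors.

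Defining markers were read for the label of the cells. Of 10 B lineage markers, 9 had H3K4me3 and all 9 had a promoter peak. Of 10 T lineage markers 2 had H3K4me3 and 1, Gata3, a promoter peak. Of 10 myeloid markers 5 had H3K4me3 and none a promoter peak. Of 10 erythroid and megakaryocyte markers 6 had H3K4me3 and Tfrc (306.02) and Itga2b (107.9) a peak. None of 10 markers of other tissues had H3K4me3. The part of other cells in the H3K4me3 list was not tested.

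By chromosome, 70.0% of the autosomal H3K4me3 genes had a promoter peak, from 64.2% on chromosome 6 to 78.2% on chromosome 16, and 45.9% on the X chromosome (167 of 364). Mice of both sexes were used, so cells with 1 X chromosome can have given fewer reads there, and this cannot be told apart from less Pax5 at its genes.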

How the data were processed

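Pre-B ChIP-seq for Pax5, H3K4me3 and H3K27ac was analysed from the interval lists the authors deposited, 1 library each. The labels name mm9, Bowtie 0.12.9 and MACS 1.4.2, and the paper's methods describe, for another version of Bowtie, an alignment that keeps reads with up to 3 best positions. Whether these lists were aligned that way is not given in the sources used here. Peak calling settings for these lists are not given in the sources used here, except that Pax5 was called against input. The score in the deposited Pax5 and H3K27ac lists is the caller's own number, used only within a list. The deposited H3K4me3 list holds other values, 25 bp bins without a score, and the authors' calling of them is not given in the sources used here. Bins were joined across gaps up to 100 bp.

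Overlap meant at least 1 bp. Offsets run from the nearest transcript start of a protein-coding gene in GENCODE M1 to the midpoint of a peak. For promoter windows, opposite starts and cover around starts, each gene was given 1 start. It was the start nearest the midpoint of an H3K4me3 region within 1000 bp, or else the most upstream start. Genes were named by 8 rules, which took the highest, lowest and widest peaks, those in the widest H3K4me3 regions, those without H3K27ac, those at the limit, genes with most peaks and all listed genes. The members and gene lists were chosen with earlier results of these data known. A total of 6 listed symbols were matched through RefSeq synonyms of GRCm38, and 1 (Gfi1) is not protein-coding in GENCODE M1. Another listed gene is not reported here by name. The interval steps were checked on planted intervals. Alternatives were other gaps, limits, overlaps, transcripts and shorter lists. Python 3.11.15, numpy 2.4.6, pandas 2.3.3, pysam 0.24.0 and matplotlib 3.10.9 were used.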

Additional observations from a re-analysis of the deposited data

How the results depend on the processing

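No paired analysis was possible because the labels give 1 library for each profile, and no replicate could be left out. Across the alternatives, the number of promoter peaks lay between 7276 and 7755 and the number of genes between 7988 and 8356, except with the higher-scoring 50% of the Pax5 list (7723 peaks), which gave 4535 peaks at 5145 genes, a median width of 1253 bp and an H3K27ac overlap of 94.6%, with fewer peaks by its construction. The overlap with H3K27ac depended most on its definition. It was 92.0% by 1 bp, 88.0% with the higher-scoring 50% of the H3K27ac list, 65.8% where H3K27ac had to cover 50% of the peak and 46.8% where it had to cover the midpoint. It was 93.1% where H3K4me3 covered 50% of the peak and 92.8% where it covered the midpoint. With starts of protein-coding transcripts only, the median offset was 20.5 bp and not 10 bp. The shares, the width and the offset given one by one are those outside the 95% interval of the main value over the peaks. That interval covers counting only, since peaks are not replicates. The numbers of peaks and genes have no interval and were read against a factor of 1.5. With depth unknown, a promoter without a Pax5 peak cannot be told apart from one that fell under the caller's threshold.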
